A study of Mus musculus with 8 samples.

Results

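The genes described here make prostaglandins and leukotrienes, the oxygenated lipid mediators that macrophages release from arachidonic acid. A list of 10 genes was looked up by symbol in a table of 10639 genes, and 9 were found: Pla2g4a, Ptgs1, Ptgs2, Ptges, Ptges3, Alox5, Alox5ap, Lta4h and Ltc4s. Tbxas1, the thromboxane synthase gene, was not in the table and was not analysed here. RNA sequencing was done on RAW264.7 cells, a mouse macrophage-like line transformed with Abelson leukaemia virus, labelled wild type in all groups. Cells were left untreated, treated for 12 h with 50 ng/mL lipopolysaccharide (LPS, a bacterial product sensed by TLR4), treated for 12 h with anti-CD36 antibodies diluted 1 in 100 (CD36 is a lipid scavenger receptor), or treated with LPS plus the antibodies for 12 h. The labels give no doses for the combination and name no control antibody. Each group had 2 libraries, and the labels do not say that these came from separate cultures. The p-values below therefore reflect library-to-library spread that could be technical.

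In this pathway a phospholipase frees arachidonic acid from membranes, and 2 kinds of enzyme then compete for it. Cyclooxygenases, encoded by Ptgs1 (COX-1, present in many resting cells) and Ptgs2 (COX-2, an early inducible gene in activated macrophages), turn it into prostaglandin H2, from which terminal synthases make each prostaglandin. Arachidonate 5-lipoxygenase, helped by its activating protein, turns it into leukotriene A4, which is made into leukotriene B4 or C4. RAW264.7 cells are a common model for prostaglandin release after LPS. A transcript level does not give enzyme activity or the amount of any lipid, and neither was measured in these files.

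The 4 members whose levels differed most after LPS are shown with the 250 bases before their start, so that the inducible genes Ptgs2 and Ptges can be read beside Ptgs1 and Alox5. Sequences are RefSeq GRCm38.p6, written 5′ to 3′ along the gene, with matches to the motifs named below in capitals. The windows are chr1:150099781-150100030 on the plus strand for Ptgs2, chr2:30903298-30903547 on the minus strand for Ptges, chr2:36230176-36230425 on the plus strand for Ptgs1 and chr6:116461179-116461428 on the minus strand for Alox5.
Ptgs2: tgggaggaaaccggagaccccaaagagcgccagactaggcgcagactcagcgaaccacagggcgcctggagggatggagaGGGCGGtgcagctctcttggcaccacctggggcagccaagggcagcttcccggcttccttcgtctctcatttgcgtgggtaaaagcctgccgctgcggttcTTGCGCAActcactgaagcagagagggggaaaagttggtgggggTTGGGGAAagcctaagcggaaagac
Ptges: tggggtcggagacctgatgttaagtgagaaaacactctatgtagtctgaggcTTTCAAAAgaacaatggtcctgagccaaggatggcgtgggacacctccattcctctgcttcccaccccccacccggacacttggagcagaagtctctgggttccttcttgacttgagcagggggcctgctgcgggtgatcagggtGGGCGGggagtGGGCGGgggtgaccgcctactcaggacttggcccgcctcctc
Ptgs1: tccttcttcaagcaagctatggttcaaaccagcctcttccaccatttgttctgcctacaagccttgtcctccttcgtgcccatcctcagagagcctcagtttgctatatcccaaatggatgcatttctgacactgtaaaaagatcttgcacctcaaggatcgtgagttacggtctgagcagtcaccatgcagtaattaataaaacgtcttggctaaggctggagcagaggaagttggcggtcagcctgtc
Alox5: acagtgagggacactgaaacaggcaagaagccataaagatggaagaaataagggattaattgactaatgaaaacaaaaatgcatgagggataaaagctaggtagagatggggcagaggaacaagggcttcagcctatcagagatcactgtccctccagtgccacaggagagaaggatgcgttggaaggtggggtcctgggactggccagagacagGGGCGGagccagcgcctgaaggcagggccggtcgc

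In all, 5 motifs were searched on both strands: TATAA, the GC box GGGCGG, the CRE core TGACG, the C/EBP motif TTNNGNAA and the NF-kB consensus. The Ptgs2 window held the C/EBP motif at -69 to -62, where TTGCGCAA reads the same on either strand, and again at -25 to -18, with a GC box at -170 to -165. The Ptges window held GC boxes at -53 to -48 and -42 to -37 and a C/EBP match on the opposite strand at -198 to -191. Alox5 had a GC box at -35 to -30, and the Ptgs1 window had none of the 5 motifs. None of these 4 windows held TATAA, the CRE core or the NF-kB consensus in the letters searched. Bases upstream of the windows or past the annotated start were not searched, so the promoters may hold these motifs there. Such matches are common: of 32841 mouse promoters of this length, 32.7% held a GC box, 36.9% the C/EBP motif, 22.8% TATAA, 17.8% the CRE core and 7.25% the NF-kB consensus. A match here is a description of letters and not a binding site. A promoter entry was found for 9 of the 10 listed genes.

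Values are FPKM (fragments per kilobase of transcript, scaled to library depth), and levels are compared between genes per length. The labels name both an Illumina total RNA protocol and 10x Genomics, and such a comparison holds only if the libraries cover whole transcripts. The recovered depth was 47900000 to 71700000 reads per library, at which 3 reads in a transcript of 2000 bases equal an FPKM of 0.0209 to 0.0313 (counting error only). Of 9 macrophage markers 8 were in the table, with a summed FPKM of 3625 to 5396 over the 8 libraries, and none of 29 markers of 8 other cell types was. The sum hides moves in both directions from untreated to LPS, as for mean Csf1r (308 to 103) and mean Adgre1 (13.0 to 83.4). Every gene in the table has reads in all 8 libraries. A marker without reads in a single library would be absent too, so this does not show that each library lacked these cells. Replicate 1 of anti-CD36 stood apart: mitochondrial genes held 15.7% of its summed FPKM against 3.28% to 6.62% in the other 7 libraries. The SD over genes of the replicate difference was 0.45 (log2) in anti-CD36 and 0.14 to 0.22 in the other groups. Where leaving that library out changes a result with the antibodies, the value without it is given beside it. In bulk RNA, fewer expressing cells and less RNA per cell cannot be told apart.

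After LPS, 8 of the 9 synthesis genes differed from untreated cells in limma on log2(FPKM + 1) at a Benjamini-Hochberg adjusted p under 0.05, with Pla2g4a, Ptgs2 and Ptges higher and Ptgs1, Alox5, Alox5ap, Lta4h and Ltc4s lower. Ptges3 was not called. Of all 10289 tested genes 54.6% were called, 17% higher and 37.5% lower, so a call by itself is common here and the sizes below carry more information. The median difference was -0.54 (log2) over the 9 members and -0.19 over all tested genes, and median-ratio scaling moved these to -0.31 and 0.00. That scaling brings the median over all tested genes close to 0.00 by design. All 9 members passed the expression filter (2 or more libraries at an FPKM of 1 or above). Ptges passed only through the 4 libraries with LPS and Ptgs1 only through the 4 without it, so these genes had to differ to be tested. Ltc4s reached 1 in the 4 libraries without LPS but, of those with it, only in LPS replicate 2 (1.01). It too relied on the libraries where it was higher to be tested.

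**Figure D1:**
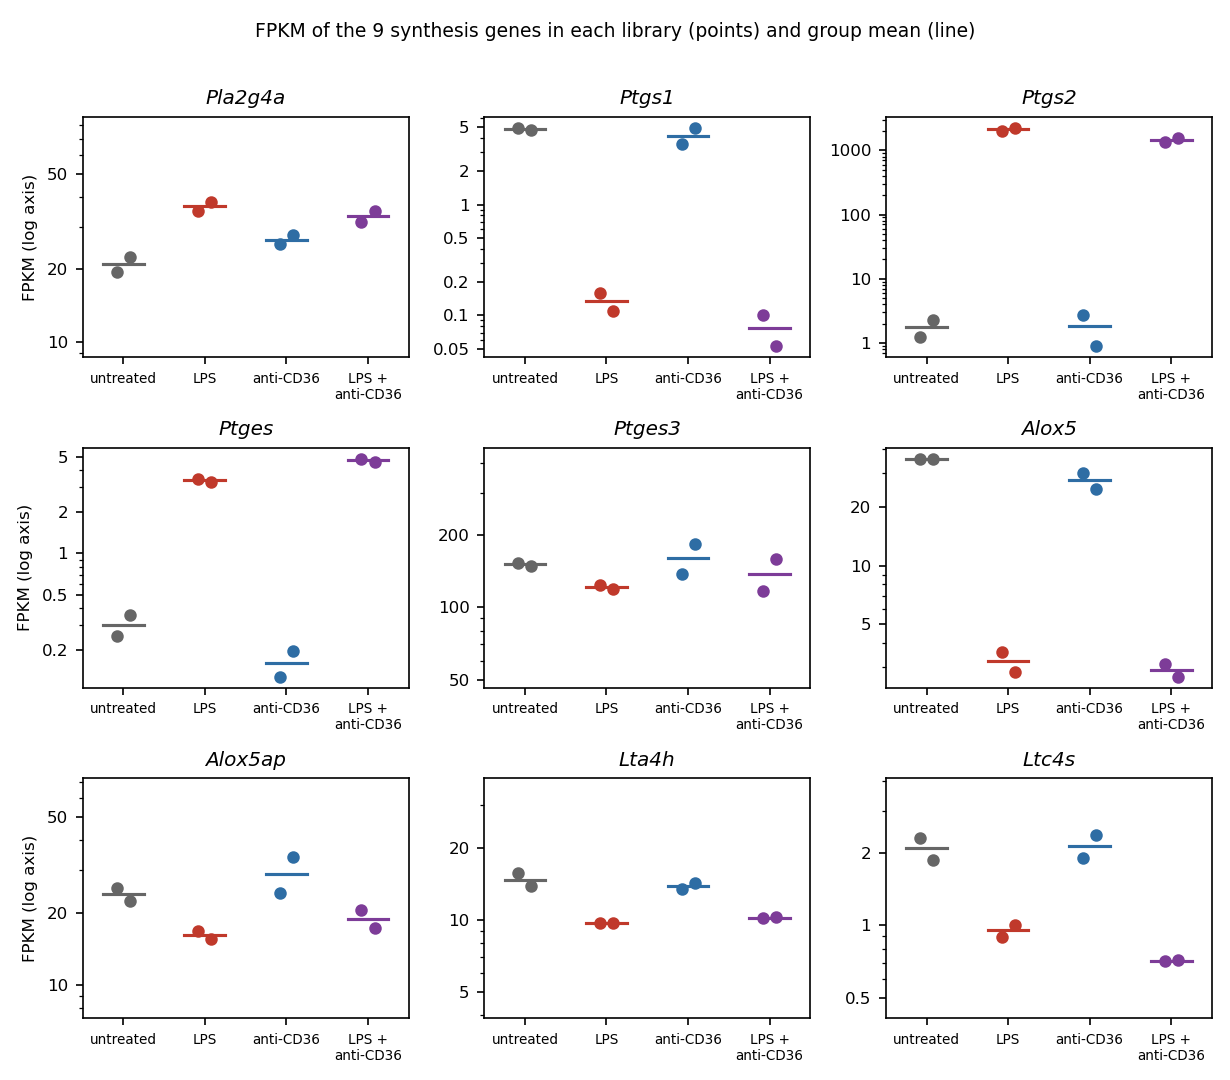
FPKM of the 9 synthesis genes in each of the 8 libraries, on a log axis, with a point for each library and a line at the group mean. Ptgs2 lies at 0.898 to 2.72 without LPS and at 1338 to 2238 with it, while Ptgs1 and Alox5 lie lower in the 4 libraries with LPS than in the 4 without.

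Pla2g4a encodes cytosolic phospholipase A2 alpha, the calcium-dependent enzyme that frees arachidonic acid from membrane phospholipids. Its FPKM was 19.5 and 22.5 in the untreated libraries, 35.2 and 38.2 with LPS, 25.4 and 27.8 with anti-CD36, and 31.5 and 35.1 with both. The libraries with LPS were all above those without it. LPS raised it 1.75 times by mean FPKM, and in limma the log2 difference was 0.78 ± 0.12 (SE; adjusted p = 0.0014). After scaling by median-ratio size factors the difference was 1.01.

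Ptgs2, the inducible cyclooxygenase (chr1:150100031-150108227, plus strand, GRCm38), had an FPKM of 1.24 and 2.25 in untreated cells and 2027 and 2238 with LPS. With anti-CD36 it was 2.72 and 0.898, and with both it was 1338 and 1569. The libraries fell into a low set without LPS and a high set with it, with no value between. The LPS mean was 1221 times the untreated mean, and the log2 difference of 9.62 ± 0.31 (SE; limma adjusted p = 1.27e-06) was the second largest rise of 10289 tested genes on the log2(FPKM + 1) scale. By rank of FPKM among 10639 genes, Ptgs2 stood at 9661 and 8834 in untreated cells and at 13 and 10 with LPS. In recovered reads this was 317 and 739 against 570062 and 651573.

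Ptgs1, the constitutive cyclooxygenase (chr2:36230426-36252272, plus strand), went the other way. Its FPKM was 4.94 and 4.75 in the untreated libraries, 0.159 and 0.109 with LPS, 3.51 and 4.90 with anti-CD36, and 0.101 and 0.0529 with both. All 4 values with LPS were far under all 4 without it. The untreated mean was 36.1 times the LPS mean, from 1068 and 1323 recovered reads against 38 and 27. The log2(FPKM + 1) difference of -2.37 ± 0.13 (SE; limma adjusted p = 1.57e-05) understates this because the LPS values lie far below the pseudocount of 1, and limma voom on the recovered reads gave -5.19. On the log2(FPKM + 1) scale it was the 19th largest fall, a rank that depends on the pseudocount. A predicted transcript on the opposite strand shares 3.81% of the exon bases of Ptgs1, and whether strand was used in counting is not known.

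Set against each other, the FPKM of Ptgs2 was 0.252 and 0.474 times that of Ptgs1 in untreated cells and 0.774 and 0.183 times with anti-CD36. With LPS it was 12722 and 20465 times, and with both 13237 and 29638 times. Thus Ptgs1 was the more abundant cyclooxygenase transcript in all 4 libraries without LPS, and Ptgs2 in all 4 with it. The high ratios rest on 11 to 38 Ptgs1 reads, which sets their precision.

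Ptges encodes microsomal prostaglandin E synthase-1, the inducible terminal enzyme that is coupled to COX-2. Its FPKM was 0.251 and 0.355 in the untreated libraries, 3.43 and 3.31 with LPS, 0.127 and 0.195 with anti-CD36, and 4.85 and 4.56 with both. LPS raised it 11.1 times by mean FPKM. The log2(FPKM + 1) difference of 1.75 ± 0.09 (SE; limma adjusted p = 1.30e-05) understates this because the untreated values lie under the pseudocount, and voom gave 3.46. The recovered reads were 55 and 100 in untreated cells and 828 and 826 with LPS. Although Ptges and Ptgs2 rose in the same libraries, Ptges stayed at a few FPKM, at rank 7471 to 7729 of the table, while Ptgs2 entered the top 13.

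Ptges3, the cytosolic prostaglandin E synthase, is also known as the HSP90 co-chaperone p23. It had 153 and 149 FPKM in the untreated libraries, 124 and 120 with LPS, 137 and 184 with anti-CD36, and 117 and 159 with both. The LPS values lay under the untreated ones, by -0.31 ± 0.19 (SE; limma adjusted p = 0.206), which was not called. It was called with quantile normalization (-0.53, adjusted p = 0.0354) and in a fit on these groups alone (-0.31, 0.0179), where 68.2% of all genes were called. With median-ratio size factors the difference was -0.08. A processed pseudogene, Ptges3-ps, could take some of its reads. Ptges3 transcripts were 609 and 421 times those of Ptges per length in untreated cells and 36.0 and 36.2 times with LPS.

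Alox5, the 5-lipoxygenase gene (chr6:116410077-116461178, minus strand), fell by 3.13 on the log2 scale with LPS (SE 0.14; limma adjusted p = 5.88e-06). This was the 4th largest fall on the log2(FPKM + 1) scale. With a pseudocount of 0.1 Ptgs1 fell more than Alox5 (-4.41 against -3.44), as it did by voom and by mean FPKM. Its FPKM was 35.4 and 35.7 in the untreated libraries, 3.58 and 2.83 with LPS, 30.1 and 24.9 with anti-CD36, and 3.12 and 2.67 with both. The untreated mean was 11.1 times the LPS mean. All 4 libraries with LPS lay far below all 4 without it, from 8100 and 10513 reads in untreated cells to 904 and 738 with LPS.

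Alox5ap, also called FLAP, is the membrane protein that presents arachidonic acid to 5-lipoxygenase. Its FPKM was 25.3 and 22.4 in the untreated libraries, 16.7 and 15.5 with LPS, 24.3 and 34.0 with anti-CD36, and 20.5 and 17.3 with both. The LPS difference was -0.54 ± 0.17 (SE; limma adjusted p = 0.0314). This call was lost with median-ratio size factors (-0.31, adjusted p = 0.14), with quantile normalization (-0.39, 0.0755) and with a replicate block (-0.54, 0.057). It was also lost when any untreated or LPS library was left out, where the difference was -0.62 to -0.45 (adjusted p from 0.0675 to 0.148). Alox5 stood at 1.40 and 1.59 times Alox5ap in untreated cells and at 0.215 and 0.182 times with LPS, so their order turned over between these groups. With both it stood at 0.152 and 0.154 times. With anti-CD36 alone it stood at 1.24 and 0.734 times, so the order differed between those libraries without LPS.

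The 2 enzymes that use leukotriene A4 were called lower too. Lta4h, the leukotriene A4 hydrolase that makes leukotriene B4, had 15.6 and 13.8 FPKM in untreated cells and 9.74 and 9.68 with LPS. It was at 13.4 and 14.3 with anti-CD36 and at 10.2 and 10.3 with both. Its LPS difference was -0.55 ± 0.10 (SE; limma adjusted p = 0.00324), and -0.33 (adjusted p = 0.0291) with median-ratio size factors. Ltc4s, the leukotriene C4 synthase that starts the cysteinyl leukotrienes, had 2.32 and 1.87 FPKM in untreated cells and 0.899 and 1.01 with LPS. It was at 1.91 and 2.37 with anti-CD36 and at 0.710 and 0.719 with both. The untreated mean was 2.20 times the LPS mean, and the difference was -0.66 ± 0.12 (SE; adjusted p = 0.00231). The Ltc4s values rest on 39 to 138 reads per library.

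Antisense genes are annotated across 2 of these genes. Gm26542 lies opposite 26.4% of the exon bases of Ltc4s and Gm19719 opposite 13.3% of those of Alox5ap. Neither is in the table, and without the strand setting any reads of theirs could not be told apart from those of the synthesis genes.

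**Figure D2:**
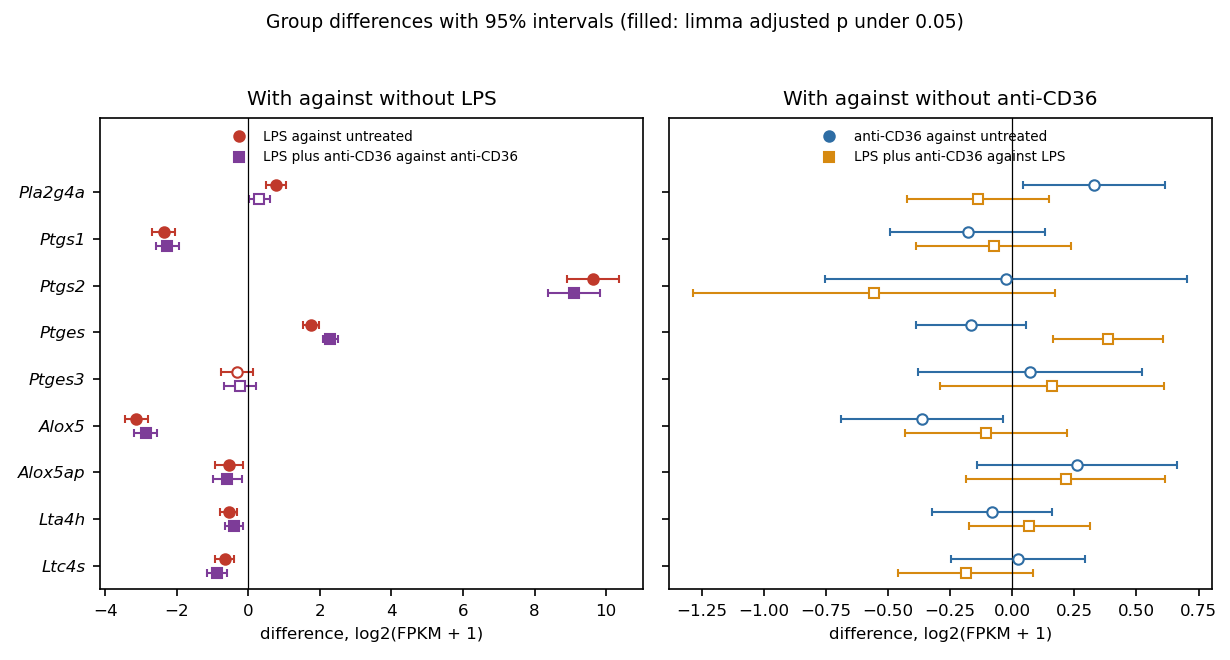
Differences in log2(FPKM + 1) of the 9 synthesis genes with against without LPS (left) and with against without anti-CD36 (right), with 95% intervals from limma and filled points for adjusted p under 0.05. Ptgs2 stands at 9.62 and Alox5 at -3.13 for LPS against untreated cells, and no point is filled for either antibody comparison.

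The antibodies alone called none of the 9 synthesis genes against untreated cells in limma, where 13.7% of all tested genes were called, 3.04% higher and 10.6% lower. At an unadjusted p under 0.05 there were 2 of the 9, against 3210 of all 10289 tested genes. Limma voom on recovered reads also called 0, with 2 at an unadjusted p under 0.05, against 2902 of 9594 genes. Alox5 was lower in both anti-CD36 libraries than in both untreated ones, with a difference of -0.36 (95% interval -0.69 to -0.04; adjusted p = 0.123). Pla2g4a was higher in both, with 0.33 (0.04 to 0.61; adjusted p = 0.115). For Ptgs2 the difference was -0.02 with an interval of -0.75 to 0.70, which is wide because its anti-CD36 replicates of 2.72 and 0.898 lie on either side of the untreated values. Without anti-CD36 replicate 1, the library high in mitochondrial transcripts, limma called 3 genes: Alox5 (adjusted p = 0.0237), Alox5ap (0.0209) and Pla2g4a (0.042). The share of all genes called rose to 36.3% in that fit, so 3 of 9 is near the background. Without replicate 2 it called Ptgs1 (0.037), with 27.6% of all genes called. The calls therefore turned on which of the 2 libraries was kept, and the part of mitochondrial content in them was not tested.

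When cells given LPS and the antibodies were compared with cells given LPS alone, none of the 9 genes was called, while 1.78% of all tested genes were, 0.36% higher and 1.42% lower. At an unadjusted p under 0.05 there was 1 of the 9, against 2005 of all 10289 tested genes. Limma voom on recovered reads called 0, also with 1, against 1924 of 9594 genes. Ptges was the gene with the lowest p: its combination values of 4.85 and 4.56 lay above the LPS values of 3.43 and 3.31, a ratio of 1.40 and a log2 difference of 0.38 ± 0.09 (SE; 95% interval 0.16 to 0.61; adjusted p = 0.0878). It was called when either anti-CD36 library was left out of the shared spread (0.0323 and 0.0319), where the share of all genes called rose from 1.78% to 13.9% and 14.2%. Ptgs2 moved in the other direction, with 1338 and 1569 against 2027 and 2238 and a difference of -0.56 (-1.28 to 0.17; adjusted p = 0.384). In a fit on these groups alone, which leaves 2 residual degrees of freedom, Ptges (adjusted p = 0.0211) and Ptgs2 (0.0243) were both called, as were 2307 genes of the table (22.4%).

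The LPS response was also present in cells that had the antibodies. Against anti-CD36 alone, 7 of the 9 genes were called in limma with 2 higher and 5 lower, where 47.1% of all tested genes were called, 15.4% higher and 31.7% lower. The combination mean was 804 times the anti-CD36 mean for Ptgs2 and 29.2 times for Ptges, with log2 differences of 9.09 ± 0.31 (SE; adjusted p = 1.39e-06) and 2.30 ± 0.09 (adjusted p = 3.49e-06). The Ptges anti-CD36 values lie under the pseudocount, and its difference ran from 0.91 to 4.81 over the alternatives. For the genes that fell, the anti-CD36 mean was 54.6 times the combination mean for Ptgs1 and 9.50 times for Alox5, and Ltc4s fell by 0.87 on the log2 scale (adjusted p = 0.000785). Lta4h (-0.40, adjusted p = 0.0156) and Alox5ap (-0.58, adjusted p = 0.0264) were called too, but both calls were lost with median-ratio size factors. Of 17 alternatives in all, the Lta4h call was lost in 5 and the Alox5ap call in 7. Pla2g4a was not called (0.31, adjusted p = 0.0702), although it was with those size factors (0.49, adjusted p = 0.0102). The comparisons with untreated cells share the untreated libraries, and these share the combination libraries, so their values stand side by side only.

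Whether the LPS difference itself changed with the antibodies was tested as an interaction. None of the 9 genes was called in limma, with 2 at an unadjusted p under 0.05, against 1396 of all 10289 tested genes. Voom also called 0 with 2, against 1147 of 9594 genes. Of all tested genes 1 was called (0.00972%), and 616 (6%) without anti-CD36 replicate 1, where again none of the 9 was. The largest interactions in size were Ptges, 0.55 ± 0.13 (SE; 95% interval 0.24 to 0.86; adjusted p = 0.266), Ptgs2, -0.53 (-1.56 to 0.50; adjusted p = 0.632), and Pla2g4a, -0.47 (-0.87 to -0.06; adjusted p = 0.331). Over the alternatives the Ptges value ran from 0.25 to 1.35, and its anti-CD36 values rest on 24 and 44 recovered reads. For Ptgs2 the interval still holds a log2 change of more than 1 in its LPS response. Its value rests on the anti-CD36 libraries, at -0.05 (adjusted p = 0.923) without replicate 1 and -1.02 (0.0629) without replicate 2.

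The order of the transcripts per length changed with LPS. In untreated cells Ptges3 was highest by mean FPKM, followed by Alox5, Alox5ap, Pla2g4a, Lta4h, Ptgs1, Ltc4s, Ptgs2 and Ptges. The ranges of Alox5ap and Pla2g4a overlapped, as did those of Ltc4s and Ptgs2. With LPS the order was Ptgs2, Ptges3, Pla2g4a, Alox5ap, Lta4h, Ptges, Alox5, Ltc4s and Ptgs1, with overlap only between Ptges and Alox5. The combination had the same order as LPS with no overlap between neighbours. In anti-CD36 cells Ptges3 was again highest and Ptges lowest, and Alox5ap, Alox5 and Pla2g4a overlapped in between.

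**Figure D3:**
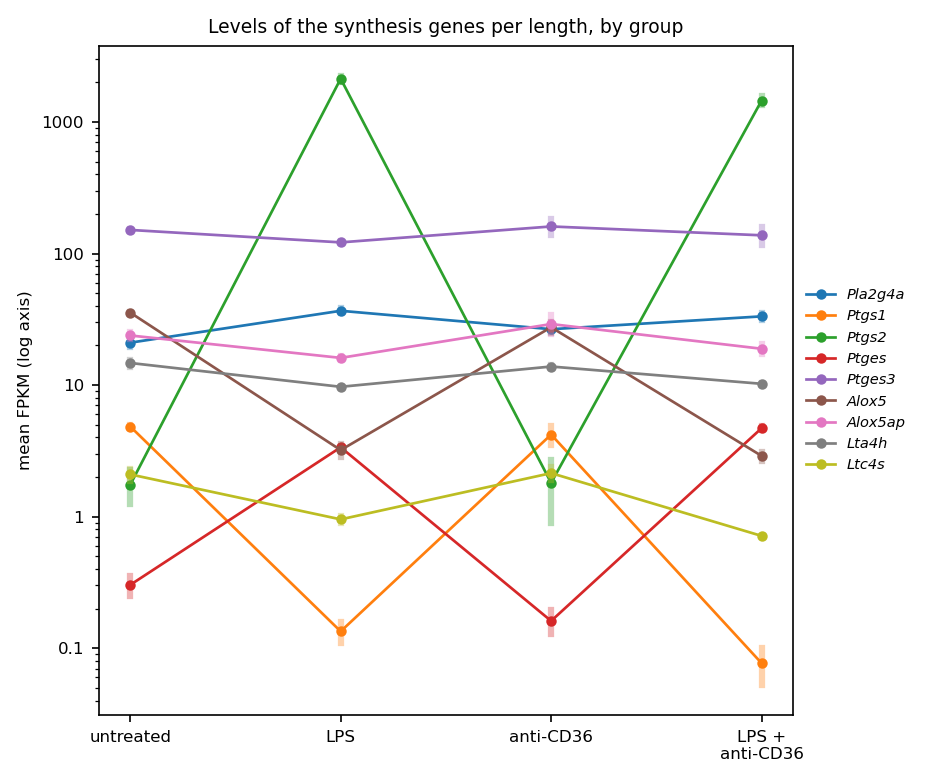
Mean FPKM of the 9 synthesis genes in each group on a log axis, with a pale bar for the range of the 2 libraries and lines that only join the points of a gene. Ptgs2 lies near the bottom without LPS and at the top with it, and Ptgs1 moves to the bottom.

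Genes with the profile most like each of Ptgs2, Ptges and Alox5 were found by root-mean-square distance over the 8 libraries between log2(FPKM + 1) profiles centred on the untreated mean. For Ptgs2 they were the cytokine and chemokine genes Il1b (0.532), Cxcl2 (0.628), Ccl5 (0.634), Csf3 (0.789) and Il1a (1.17). The mean FPKM of Il1b went from 0.248 in untreated cells to 871 with LPS and 1189 with both. All of these genes had a higher mean with both agents than with LPS alone, whereas Ptgs2 had a lower one (1453 against 2132). For Ptges the nearest were Arl5c (0.102), Pdcd1 (0.108), Tmem132a (0.110), Glipr2 (0.159) and Eva1b (0.161). For Alox5 they were Cd24a (0.244), Lpar5 (0.265), Kbtbd11 (0.298), Klf10 (0.335) and Scel (0.340), with Cd24a at 34.2 in untreated cells and 3.69 with LPS. Distance grows with the size of the change, so the values compare genes only within each set.

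The transcripts also differ in the pentamer ATTTA, the core of AU-rich elements, in the longest annotated 3′ untranslated region (GENCODE M21). Ptgs2 holds 14 in 2445 bases, and 2.67% of the 9572 tested genes with such a region hold as many or more. Pla2g4a holds 4 in 443 bases, Ptges3 4 in 1186, and Alox5 and Alox5ap 2 each. Ptgs1, Ptges, Lta4h and Ltc4s hold none, in 921, 3106, 94 and 102 bases. The median gene had 2 in a region whose median length was 1155 bases. Ptges and Ptgs2, which both rose, thus differ widely in this count. The stability of the transcripts was not measured.

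Other eicosanoid genes were taken from a list of 68 by role, of which 29 were in the table and all were tested. After LPS 21 of the 29 (72.4%) were called, 9 higher and 12 lower, with a median difference of -0.34. The shares over all genes were 54.6% called, 17% higher and 37.5% lower, and the counts by role below stand against them. In substrate release and reacylation, 9 of 11 were called. Acsl4, which links fatty acids such as arachidonate to coenzyme A, went from 22.3 and 27.0 to 49.1 and 52.3 FPKM (1.02, limma adjusted p = 0.000727). Pla2g5, a secreted phospholipase A2, went from 3.77 and 3.65 to 8.19 and 8.06 (0.95). Daglb, a diacylglycerol lipase, fell from 6.91 and 6.49 to 1.83 and 1.86 (-1.44, adjusted p = 4.79e-05).

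Of 7 genes of breakdown and conversion, 4 were called lower and 1 higher. Hpgd, the dehydrogenase that inactivates prostaglandin E2, went from 19.9 and 23.3 FPKM in untreated cells to 3.75 and 4.10 with LPS. The difference was -2.19 (limma adjusted p = 7.55e-05), and with both agents its values were 2.05 and 2.92. Ephx1, the microsomal epoxide hydrolase, went from 19.5 and 21.2 to 6.46 and 8.54 (-1.34). Of 5 other prostaglandin synthases 2 were called, both lower, among them Hpgds, the haematopoietic prostaglandin D synthase (-0.69). In transport, Abcc1, which exports leukotriene C4, rose by 0.61 and Abcc4, which exports prostaglandins, fell by 1.08 on the log2 scale.

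Of 16 listed receptor genes only 3 were in the table, and all 3 were called after LPS. Ptgir, the prostacyclin receptor, went from 4.74 and 5.14 FPKM to 20.2 and 22.3 (1.91, limma adjusted p = 4.25e-05). Ptger4, the prostaglandin E2 receptor EP4, rose by 0.59. Cysltr1, the receptor for cysteinyl leukotrienes, went from 3.68 and 4.68 to 0.893 and 0.860 (-1.46, adjusted p = 8.86e-05). Cysltr1 passed the expression filter only through the 4 libraries without LPS. Within this set of receptors the 2 prostaglandin receptors were higher and the leukotriene receptor lower.

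**Figure D4:**
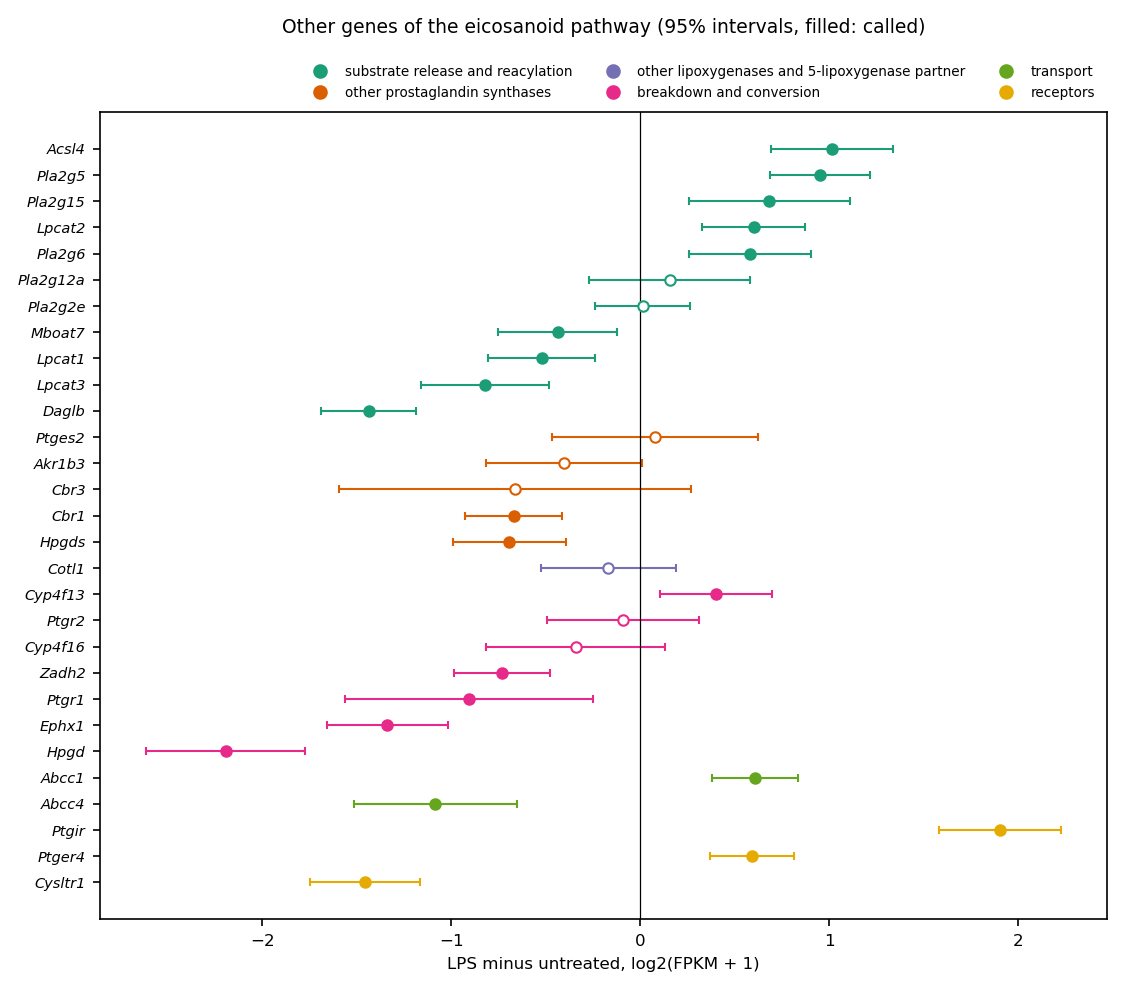
LPS difference in log2(FPKM + 1) with 95% intervals for the 29 other eicosanoid genes, coloured by role, with filled points for adjusted p under 0.05. Hpgd at -2.19 lies farthest to the left and Ptgir at 1.91 farthest to the right.

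In the antibody comparison with untreated cells 3 of the 29 (10.3%) were called, against 13.7% of all genes. All 3 were lower with anti-CD36: Abcc1 (-0.62, limma adjusted p = 0.0156), Zadh2, a prostaglandin reductase (-0.52, 0.0251), and Daglb (-0.41, 0.0461). These calls were lost in 3, 7 and 12 of the alternatives tried. Without anti-CD36 replicate 1 Abcc1 (adjusted p = 0.00422) and Zadh2 (0.0144) were called and Daglb was not (-0.31, 0.0618). Against LPS alone 2 of the 29 (6.90%) were called, both lower with the combination, against 1.78% of all genes. Ephx1 was at 2.95 and 3.32 FPKM against 6.46 and 8.54 (-1.03, adjusted p = 0.0214), and Ptger4 at 1.19 and 1.36 against 2.18 and 2.30 (-0.51, adjusted p = 0.0496). Those calls were lost in 6 and 10 alternatives. Against anti-CD36 alone 18 of the 29 (62.1%) were called, 9 in each direction, against 47.1% of all genes. They were led by Hpgd (-3.05), Ptgir (2.54), Cysltr1 (-2.12), Ephx1 (-1.98) and Hpgds (-1.74), then Pla2g5 (1.44), Abcc4 (-1.07) and Abcc1 (1.00). None was called in the interaction by limma. At an unadjusted p under 0.05 there were 9 of the 29, against 1396 of all 10289 tested genes.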

How the data were processed

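RNA was measured in 8 libraries of RAW264.7 cells, grouped by their labels. The authors deposited 1 table of FPKM values with 1 column per library, and HISAT2 2.0.5 and builds mm10 and hg38 appear in the submitters' processing notes. The counter, annotation, strand setting and role of hg38 are not given in the sources used here. No gene in the table is at 0 in any library. Depth was recovered by scaling FPKM by GENCODE M21 exon length, which gave whole reads within 0.05 in all 8 libraries for 95.3% of 10367 genes. In every library another total gave whole reads for as many short RNAs, and the lowest best-fitting total was kept. Depth and read counts rest on that choice.

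From the deposited FPKM, limma 3.58.1 in R 4.3.3 was run on log2(FPKM + 1) with 4 group means over 8 libraries (4 residual and 3.46 prior degrees of freedom, a trend on mean expression). The test took the 10289 genes that reached an FPKM of 1 in 2 or more libraries. Calls used a Benjamini-Hochberg adjusted p under 0.05 over all of them. Only the limma fit for LPS against untreated was tested on simulated data, with independent values and no library that stood apart. Synthesis genes were all named. Of 68 other pathway genes, the 8 called genes with the largest difference per comparison were named, and Hpgds, Ptger4 and Abcc1 after LPS were chosen after their values were seen. Members and lists were chosen with earlier results of these data known. Alternatives were other pseudocounts, filters, scalings, fits, a replicate block and left-out libraries, and, chosen after seeing the data, limma voom on recovered reads.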

Additional observations from a re-analysis of the deposited data

How the results depend on the processing

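No member changed the direction of a call. Over 249 alternative values of called members, 230 kept the call and 19 lost it, and over 492 values of members not called, 14 gained one. Genes with a mean FPKM of at least 5 gave 3665 calls for LPS against untreated, 811 for anti-CD36, 88 for the combination against LPS and 3098 for it against anti-CD36, with 5 and 4 members of 6 called in the LPS contrasts because Ptgs1, Ptges and Ltc4s were not tested. Fitting only the groups compared gave 0 calls for anti-CD36 (limma, 2045 at an unadjusted p under 0.05) and 2307 for the combination against LPS, 2 of them members. The interaction was not run in that fit. A replicate block gave 863 and 46 calls in those comparisons. The labels do not say whether the replicate numbers pair the samples. Correlations of replicate differences between groups ran from -0.645 to 0.53, with every negative value involving anti-CD36, and cannot settle this. The interaction called 0 genes with a pseudocount of 0.1 (limma, 1301 at an unadjusted p under 0.05), 6 with a pseudocount of 5 and 0 with voom (1147 at an unadjusted p under 0.05). A pseudocount of 5 called 1 member, Ptges, for the combination against LPS. Leaving out each library in turn gave 3583 to 7080 calls for LPS (lowest without LPS replicate 1), 0 to 3726 for anti-CD36 (0 without either untreated library, with 2304 and 2005 at an unadjusted p under 0.05; 325 to 506 without any LPS or combination library; 3726 and 2831 without anti-CD36 replicate 1 or 2), 1 to 1450 for the combination against LPS (1 to 3 without any LPS or combination library, 47 without either untreated one, 1427 and 1450 without anti-CD36 replicate 1 or 2), 3214 to 6374 for it against anti-CD36 (lowest without combination replicate 1) and 1 to 616 for the interaction (616 and 310 without anti-CD36 replicate 1 or 2). Members called were then 7 to 8, 0 to 3, 0 to 1, 5 to 8 and 0. The causes were not tested. Depth limits Ptgs1 with LPS, at 11 to 38 reads, and Ltc4s.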

Other observations

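Ptgs2 and Pla2g4a, the inducible cyclooxygenase and the phospholipase that supplies it, are neighbours on chromosome 1 (GENCODE M21, GRCm38). Pla2g4a, on the minus strand, starts at 149961290 and Ptgs2, on the plus strand, at 150100031. The genes are read away from each other, with 138740 bases and no protein-coding gene annotated between their starts, and both rose with LPS, by 0.78 and 9.62 on the log2 scale. Within 500 kb on either side of the pair 23 other genes are annotated, 5 of them protein-coding, and 3 were in the table. The non-coding Ptgs2os2 (chr1:150159043-150164948, minus strand) went from a mean FPKM of 2.01 to 5.93 (1.20 on the log2 scale, adjusted p = 0.000363 by limma). Odr4 went from 6.11 to 10.7 (0.72, adjusted p = 0.00214), and Tpr stood at 16.9 and 16.8 (0.01, adjusted p = 0.981). The non-coding Ptgs2os, annotated between the pair on the minus strand, was not in the table. Of all tested genes 17% were called higher after LPS. These neighbours were chosen after the values of the pair were seen, and a shared cause was not tested.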
